A study of Prunus persica with 84 samples.

Results

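FT and TFL1 are flowering regulators of the phosphatidylethanolamine-binding protein family, and their transcripts were followed through chilling and warming of peach floral buds. The 2 genes were chosen by identity, as the rows PRUPE_6G364900 (FT) and PRUPE_7G112600 (TFL1) of a count table that holds 26879 genes. Both rows were found. The table gives identifiers only, so the names FT and TFL1 come from the list by which the rows were chosen and were not checked here against sequence. FT had reads in every library, and its level rose during chilling, dropped within a day at 22 °C and differed between the genotypes. TFL1 was near zero throughout, with 8 reads in 84 libraries.

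In Arabidopsis, FT is the mobile signal made in leaves that promotes flowering at the shoot tip. TFL1 is its close relative with the opposite effect, and keeps the shoot tip from becoming a flower. In fruit trees of the rose family, genes of these names have been tied to floral induction, to the length of the juvenile phase and to bud dormancy.

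The groups came from the genotypes KV021779 (called LP in its sample titles) and John Boy (called JB). Floral buds were taken from cut shoots standing in water, so every group is from detached shoots. The chilling groups are 0, 100, 200, 400, 600, 800 and 1000 h of 4 °C. The warm groups had all 1000 h of chilling and then 22 °C, for 1, 4, 8, 12, 16 or 20 d in each genotype, with 24 d and 28 d as further groups of LP. LP began to bloom at 28 d and JB at 20 d. Messenger RNA libraries from whole floral buds gave 28 groups of 3 libraries, 45 of LP and 39 of JB. The labels do not say whether the 3 libraries of a group are from separate trees. The p-values therefore rest on a spread between libraries that may be partly technical.

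Levels are given as counts per 1000000 (CPM), the deposited read counts divided by library totals that were scaled by the TMM method. Libraries held between 8021919 and 26346177 counts. FT had 91 to 1034 counts per library, which gives a counting error of 3.11% to 10.5% on a single value. TFL1 did not pass the filter on low counts, and FT did, so 1 of the 2 members entered the tests. Tests were made with edgeR's quasi-likelihood method on 21168 genes, an adjusted p (Benjamini-Hochberg over all of them) under 0.05 was a call, and differences are on the log2 scale with their SE. Large shares of all genes moved in this experiment, so the percentage of all tested genes called in the same comparison is given beside each call of FT. Replicate libraries correlated at 0.966 or more across genes, and at 0.987 or more outside JB at 12 d and LP at 28 d. In both of those groups replicate 3 stood apart, and FT differences that rest on them are given with and without these libraries. The tissue could not be checked against marker genes, since the table names no genes other than 6 DAM genes.

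FT rose over chilling in both genotypes and was higher in LP at each of the 7 chilling times. At 1000 h the mean was 73.4 ± 4.6 CPM in LP and 45.3 ± 1.4 CPM in JB (SD, n = 3 each), the highest group mean of each genotype. These levels were 399% of the level at 0 h in LP and 381% in JB. From 0 to 1000 h the log2 change was 1.99 ± 0.11 in LP (adjusted p = 1.75e-26 in edgeR's test, where 54.3% of tested genes were called). In JB it was 1.93 ± 0.12 (adjusted p = 5.14e-23, 61.4% of genes called). The 2 changes were not distinguishable, with a difference of 0.06 ± 0.16 (adjusted p = 0.855, 31.7% called). The sign of this difference turned without LP 0 h replicate 2 (-0.01), without JB 0 h replicate 2 (-0.02) and without replicate 2 in all groups (-0.12). In whole buds, less FT per cell and a smaller share of the cells that hold FT cannot be told apart.

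**Figure D1:**
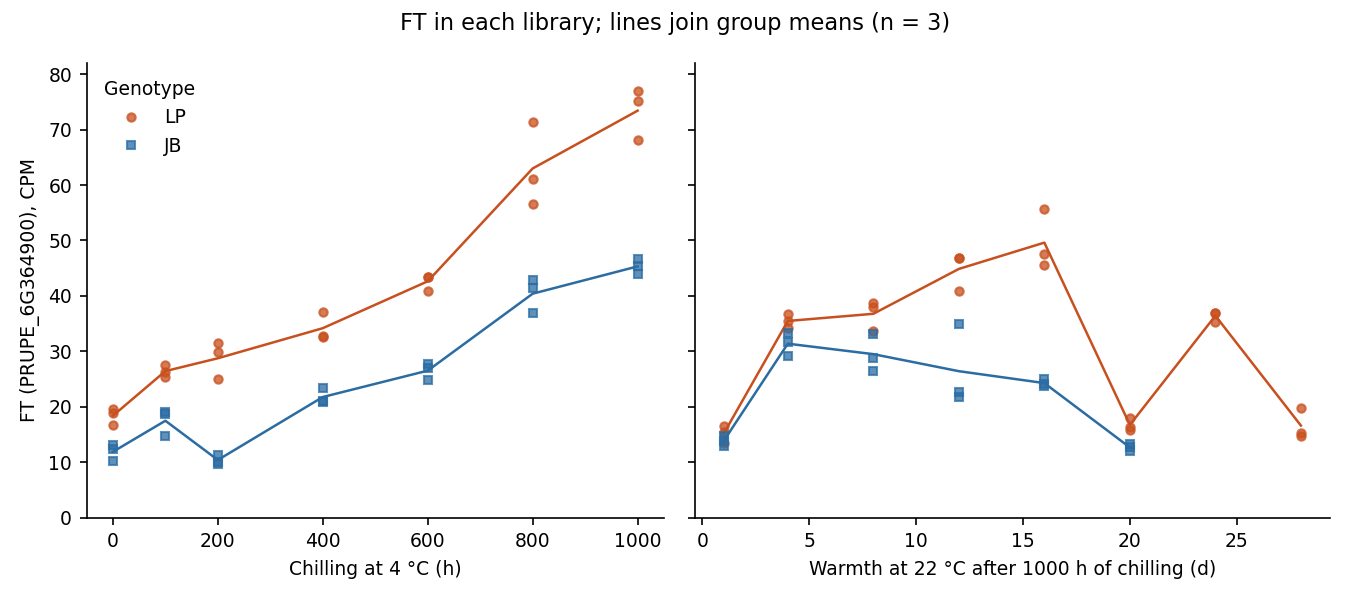
FT in CPM (vertical axis) in each of the 84 libraries against hours at 4 °C (left) and days at 22 °C (right), with circles for LP, squares for JB and lines through the means of 3 libraries. The LP points lie above all JB points at every chilling time, both genotypes drop by 1 d at 22 °C, and LP at 24 d stands at 36.4 CPM between 16.8 CPM at 20 d and 16.6 CPM at 28 d.

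The values of single libraries show the gap between the genotypes from the start. At 0 h FT had 19.6, 16.7 and 19.0 CPM in LP, against 12.4, 13.1 and 10.2 CPM in JB, a difference of 0.64 ± 0.13 (adjusted p = 3.6e-05, 42.9% of tested genes called). At 100 h it had 27.6, 26.3 and 25.4 CPM in LP, against 14.8, 18.7 and 19.0 CPM in JB (0.57 ± 0.11, adjusted p = 2.63e-05, 41.6% called). At 200 h it had 31.4, 25.0 and 29.9 CPM in LP, against 9.78, 11.4 and 10.1 CPM in JB (1.46 ± 0.12, adjusted p = 1.26e-17, 48.2% called). The 200 h gap was the widest of the chilling times, and JB then stood at the lowest FT mean of all 28 groups. At 400 h the values were 32.8, 32.7 and 37.1 CPM in LP, against 23.3, 20.9 and 21.1 CPM in JB (0.64 ± 0.11, adjusted p = 7.84e-07, 42.8% called). At 600 h they were 43.5, 41.0 and 43.5 CPM in LP, against 24.8, 27.8 and 27.0 CPM in JB (0.68 ± 0.10, adjusted p = 5.39e-08, 45.7% called). The highest of these LP values at 600 h, 43.5 CPM, lay just under the lowest JB value at 1000 h, 43.9 CPM. At 800 h FT had 61.0, 56.6 and 71.3 CPM in LP, against 41.5, 36.9 and 42.8 CPM in JB (0.64 ± 0.10, adjusted p = 2.41e-07, 39.5% called). At 1000 h it had 68.2, 76.9 and 75.1 CPM in LP, against 45.4, 43.9 and 46.7 CPM in JB (0.70 ± 0.10, adjusted p = 1.93e-08, 45% called).

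The groups did not overlap at any of the 7 chilling times. Averaged over them, FT was 0.76 ± 0.04 higher in LP (adjusted p = 1.5e-26), in a comparison where 69.3% of all tested genes were called. FT stood higher in this difference than 94.6% of tested genes, whose median was 0.01. The size of the gap changed with time (F test of genotype by time over chilling, adjusted p = 3.5e-05, 56.6% of genes called). FT also changed over the chilling times within LP (adjusted p = 3.7e-29, 69.2% called) and within JB (adjusted p = 5.67e-30, 80.6% called).

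**Figure D2:**
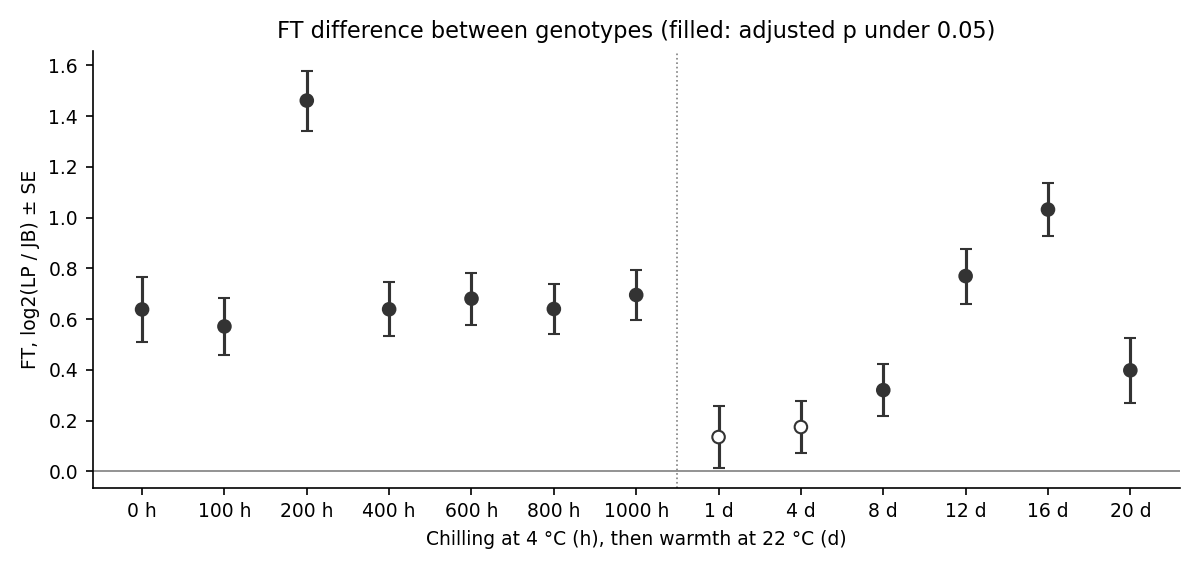
Difference of FT between LP and JB, as log2(LP / JB) ± SE from edgeR (vertical axis), at the 13 shared times (horizontal axis), with filled points for an adjusted p under 0.05. The difference lies between 0.57 and 0.70 at 6 of the chilling times and at 1.46 at 200 h, has open points at 1 d and 4 d of warmth, and reaches 1.03 at 16 d.

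The rise over chilling was not even, and the 200 h samples broke it in JB. Tests between consecutive times were added after the values had been seen. From 0 to 100 h FT rose by 0.51 ± 0.11 in LP (adjusted p = 0.000108, 47.2% of tested genes called) and by 0.58 ± 0.13 in JB (adjusted p = 0.000139, 48.8% called). From 100 to 200 h the change was 0.13 ± 0.11 in LP, which did not pass (adjusted p = 0.565, 9.96% called), and FT fell in JB by 0.76 on the log2 scale (SE 0.12, adjusted p = 1.19e-06, 22.7% called). The difference of these steps was 0.89 ± 0.16 (adjusted p = 2.3e-05, 17.8% called). From 200 to 400 h the change was 0.24 ± 0.10 in LP (adjusted p = 0.132, 11.4% called), and FT rose in JB by 1.07 ± 0.12 (adjusted p = 1.71e-11, 35.7% called). The LP step passed in 2 of 9 alternatives. This difference of steps was -0.82 ± 0.16 (adjusted p = 4.25e-05, 22.7% called). So the dip was found in JB, by tests of the difference itself, and JB was back at 21.8 ± 1.3 CPM by 400 h. A called fall to 200 h followed by a called rise to 400 h, each of any size, was seen in JB for 1173 of 21168 tested genes (5.54%). That pattern was read off FT, so its count is no test.

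None of the later chilling steps was shown to differ between the genotypes. From 400 to 600 h the change was 0.32 ± 0.10 in LP (adjusted p = 0.0573, 4.05% called) and 0.28 ± 0.11 in JB (adjusted p = 0.0443, 24.6% called), where 5 of 9 alternatives turned the LP call and 3 of 9 the JB call. From 600 to 800 h FT rose by 0.56 ± 0.10 in LP (adjusted p = 4.52e-05, 5.03% called) and by 0.60 ± 0.10 in JB (adjusted p = 1.27e-05, 8.21% called). FT was thus 1 of 1065 genes called at this step in LP and of 1737 in JB. Its change was higher than that of 93.9% of tested genes in LP and 94.4% in JB. From 800 to 1000 h neither change passed, with 0.22 ± 0.10 in LP (adjusted p = 0.189, 5.49% called) and 0.17 ± 0.10 in JB (adjusted p = 0.532, 2.72% called).

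A day at 22 °C took FT down in both genotypes. The mean at 1 d was 15.2 ± 1.5 CPM in LP and 13.9 ± 0.94 CPM in JB (SD, n = 3 each), which is 20.7% of the 1000 h level in LP and 30.6% in JB. FT fell by 2.27 on the log2 scale in LP (SE 0.11, adjusted p = 1.02e-29, 62.5% of tested genes called) and fell by 1.71 in JB (SE 0.11, adjusted p = 1.26e-21, 61.4% called). The LP step minus the JB step was -0.56 ± 0.16, a larger fall in LP (adjusted p = 0.00299, 39% called), and leaving out replicate 1 throughout ended this call (-0.53, adjusted p = 0.0574). By 4 d FT had risen again, by 1.22 ± 0.11 in LP (adjusted p = 6.81e-15, 28.3% called) and by 1.18 ± 0.12 in JB (adjusted p = 1.87e-13, 34.2% called). A fall of at least 2-fold to 1 d and then a rise of at least 2-fold to 4 d, both called, was counted over 21168 tested genes. It was seen for 126 genes in LP (0.595%), for 43 in JB (0.203%) and for 3 in both (0.0142%), of which FT was 1. The pattern was read off FT itself, so these counts describe the table and are no test.

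**Figure D3:**
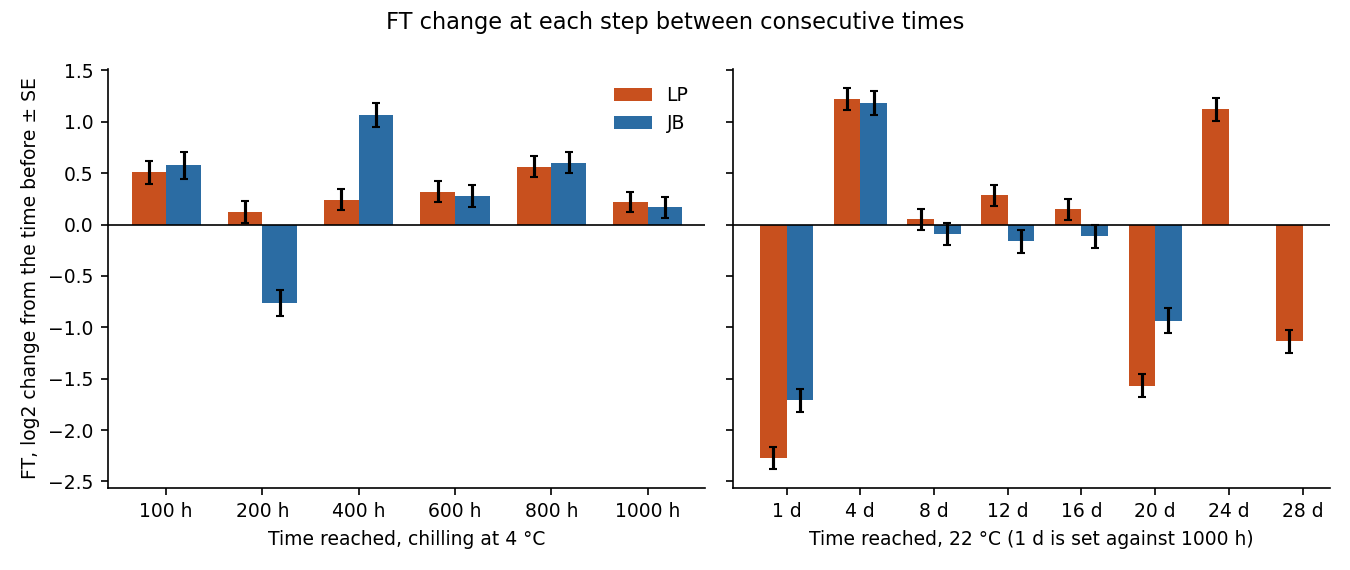
Change of FT from the sample before, on the log2 scale ± SE (vertical axis), for each consecutive step of chilling (left) and of 22 °C (right), with LP bars left of JB bars. LP changes by 0.13 at 200 h and 0.24 at 400 h where JB changes by -0.76 and 1.07, both genotypes fall at 1 d and 20 d and rise at 4 d, and LP rises at 24 d and falls at 28 d.

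The difference between LP and JB did not pass the test at 1 d and 4 d of warmth, and passed it from 8 d on, though the calls at 8 d and 20 d did not hold in every alternative. At 1 d FT had 15.4, 16.5 and 13.6 CPM in LP, against 14.8, 13.8 and 12.9 CPM in JB, and the groups overlapped (0.14 ± 0.12, adjusted p = 0.404, 40.3% of tested genes called). At 4 d it had 36.8, 34.2 and 35.5 CPM in LP, against 31.7, 33.3 and 29.2 CPM in JB (0.18 ± 0.10, adjusted p = 0.156, 51.9% called). At 8 d it had 33.7, 38.0 and 38.7 CPM in LP, against 33.2, 28.8 and 26.5 CPM in JB (0.32 ± 0.10, adjusted p = 0.01, 38.2% called). The 8 d call was weak. It was lost without LP 8 d replicate 3 (0.28, adjusted p = 0.0528) and without JB 8 d replicate 3 (0.26, adjusted p = 0.0756). At 12 d FT had 46.8, 40.9 and 46.9 CPM in LP, against 22.6, 21.8 and 34.9 CPM in JB (0.77 ± 0.11, adjusted p = 5.5e-09, 57.9% called). The high JB value was replicate 3, the library that stood apart, and without it the difference was 1.01. At 16 d the values were 47.6, 45.5 and 55.7 CPM in LP, against 24.2, 23.7 and 25.0 CPM in JB (1.03 ± 0.10, adjusted p = 9.05e-14, 64.3% called). At 20 d they were 16.4, 15.8 and 18.0 CPM in LP, against 13.3, 12.7 and 12.1 CPM in JB (0.40 ± 0.13, adjusted p = 0.00418, 71.9% called). Leaving out replicate 3 throughout ended the 20 d call (0.27, adjusted p = 0.0658).

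The groups did not overlap at 5 of the 6 shared warm times, 1 d being the exception, and 4 of the 6 differences passed the test, with the limits given for 8 d and 20 d. Averaged over the 6 times, FT was 0.47 ± 0.05 higher in LP (adjusted p = 9.9e-15, 68.6% of genes called), and 0.51 higher without JB 12 d replicate 3. The gap changed over these times (F test of genotype by time, adjusted p = 2.42e-07, 81.2% called). Within LP, FT changed over 1000 h and the 8 warm times (adjusted p = 2.96e-34, 92.9% called), and within JB over 1000 h and the 6 warm times (adjusted p = 5.59e-25, 95.1% called).

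Between 4 and 16 d FT drifted up in LP and down in JB. The mean went from 35.5 to 49.6 CPM in LP and from 31.4 to 24.3 CPM in JB. The libraries of 4 d and 16 d did not overlap in either genotype, and the change over the whole span was not tested. In LP the step to 8 d was 0.05 ± 0.10 (adjusted p = 0.789, 24% called), the step to 12 d was 0.28 ± 0.10 (adjusted p = 0.0875, 6.34% called) and the step to 16 d was 0.15 ± 0.10 (adjusted p = 0.278, 32.2% called). In JB the step to 8 d was -0.09 ± 0.10 (adjusted p = 0.563, 25.7% called). The JB step to 12 d was -0.16 ± 0.11 (adjusted p = 0.23, 42.9% called), and the JB step to 16 d was -0.11 ± 0.11 (adjusted p = 0.389, 62.2% called). No single step passed the test in either genotype. With both libraries that stood apart left out, the JB step to 12 d was -0.37 (adjusted p = 0.00322) and the LP step 0.30 (adjusted p = 0.0182). In the same run the JB step to 16 d turned to 0.11 and did not pass (adjusted p = 0.376). The step to 12 d differed between the genotypes by 0.45 ± 0.15 (adjusted p = 0.0163, 30.2% called), and by 0.66 without those 2 libraries. Leaving out replicate 1 throughout ended this call (0.15, adjusted p = 0.705), as did leaving out replicate 2 (0.43, adjusted p = 0.129).

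At 20 d FT was low in both genotypes at once, though JB was then beginning to bloom and LP was not. From 16 to 20 d it fell by 1.57 on the log2 scale in LP (SE 0.11, adjusted p = 1.88e-19, 32.5% of tested genes called) and fell by 0.94 in JB (SE 0.12, adjusted p = 4.94e-10, 61% called). The LP step minus the JB step was -0.63 ± 0.17 (adjusted p = 0.00115, 42.6% called). In LP, FT then stood at 37.0, 37.0 and 35.4 CPM at 24 d and at 15.3, 14.7 and 19.9 CPM at 28 d. The rise to 24 d was 1.12 ± 0.11 (adjusted p = 4.93e-13, 23.7% called), and the fall to 28 d was -1.14 ± 0.11 (adjusted p = 5.79e-14, 57.2% called). So LP had 16.8 ± 1.1 CPM at 20 d, 36.4 ± 0.90 CPM at 24 d and 16.6 ± 2.8 CPM at 28 d (SD, n = 3 each), and the libraries of 24 d overlapped with neither of the other days. With both libraries that stood apart left out, the fall to 28 d was -1.24. The 84 libraries include no JB group after 20 d.

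The changes from 1000 h share their 1000 h libraries with the changes over chilling. Set against the end of chilling, FT at 20 d was lower in LP by -2.13 ± 0.11 (adjusted p = 6.18e-28, 65.9% called) and in JB by -1.84 ± 0.12 (adjusted p = 4.13e-23, 75.1% called). The 2 responses differed by -0.30 ± 0.16, which did not pass (adjusted p = 0.112, 57.4% called), while it did with DESeq2, in a fit restricted to these groups and without replicate 3 throughout. At 28 d FT in LP was lower than at 1000 h by -2.15 ± 0.11 (adjusted p = 2.87e-28, 74.2% called), and by -2.29 without LP 28 d replicate 3. With each genotype taken at its start of bloom, FT had 16.6 ± 2.8 CPM in LP at 28 d and 12.7 ± 0.59 CPM in JB at 20 d (0.38 ± 0.13, adjusted p = 0.00763, 59.8% called). That call rests on LP 28 d replicate 3, since without it the difference was 0.24 (adjusted p = 0.127). It was 0.29 (adjusted p = 0.0426) when JB 12 d replicate 3 was left out too.

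In the order of the 28 FT levels, LP at 800 h and 1000 h stood above all other groups. The lowest means were JB at 200 h (10.4 ± 0.86 CPM), JB at 0 h (11.9 ± 1.5), JB at 20 d (12.7 ± 0.59) and JB at 1 d (13.9 ± 0.94). LP followed at 1 d (15.2 ± 1.5), 28 d (16.6 ± 2.8) and 20 d (16.8 ± 1.1), then JB at 100 h (17.5 ± 2.3) and LP at 0 h (18.4 ± 1.6). JB at 400 h (21.8 ± 1.3) and at 16 d (24.3 ± 0.66) came next. The middle held JB at 12 d (26.4 ± 7.4), LP at 100 h (26.5 ± 1.1), JB at 600 h (26.5 ± 1.6), LP at 200 h (28.8 ± 3.4), JB at 8 d (29.5 ± 3.4) and JB at 4 d (31.4 ± 2.1). Above them stood LP at 400 h (34.2 ± 2.6), at 4 d (35.5 ± 1.3), at 24 d (36.4 ± 0.90) and at 8 d (36.8 ± 2.7), then JB at 800 h (40.4 ± 3.1), LP at 600 h (42.6 ± 1.5), LP at 12 d (44.9 ± 3.4) and JB at 1000 h (45.3 ± 1.4). The highest were LP at 16 d (49.6 ± 5.4), 800 h (63.0 ± 7.5) and 1000 h (73.4 ± 4.6). Of the 27 neighbours in this order, 24 overlapped in their ranges. The 3 that did not were LP at 0 h under JB at 400 h, JB at 400 h under JB at 16 d, and LP at 16 d under LP at 800 h. The highest group mean was 4.84 times the lowest in LP and 4.35 times in JB. The SD between the 3 libraries of a group was 2.48% to 27.8% of the mean, with a median of 7.4%, and the highest value was that of JB at 12 d.

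TFL1, the relative of FT that delays flowering, was at or near zero in both genotypes. In LP it had 8 reads in 7 of 45 libraries, which together held 545996839 counts. In JB it had 0 reads in 39 libraries, which together held 480254730 counts. Over all 39 pooled, 3 reads would stand for 0.00621 CPM. In a single JB group of 3 libraries, 3 reads would stand for 0.0545 to 0.109 CPM. The 4 reads at LP 1000 h were 1, 2 and 1 in the 3 libraries, the single group with a read in every library. LP at 600 h had 1, 0 and 0 reads, LP at 8 d had 0, 0 and 1, and LP at 12 d had 1, 1 and 0. The other 24 groups had no read in any library.

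**Figure D4:**
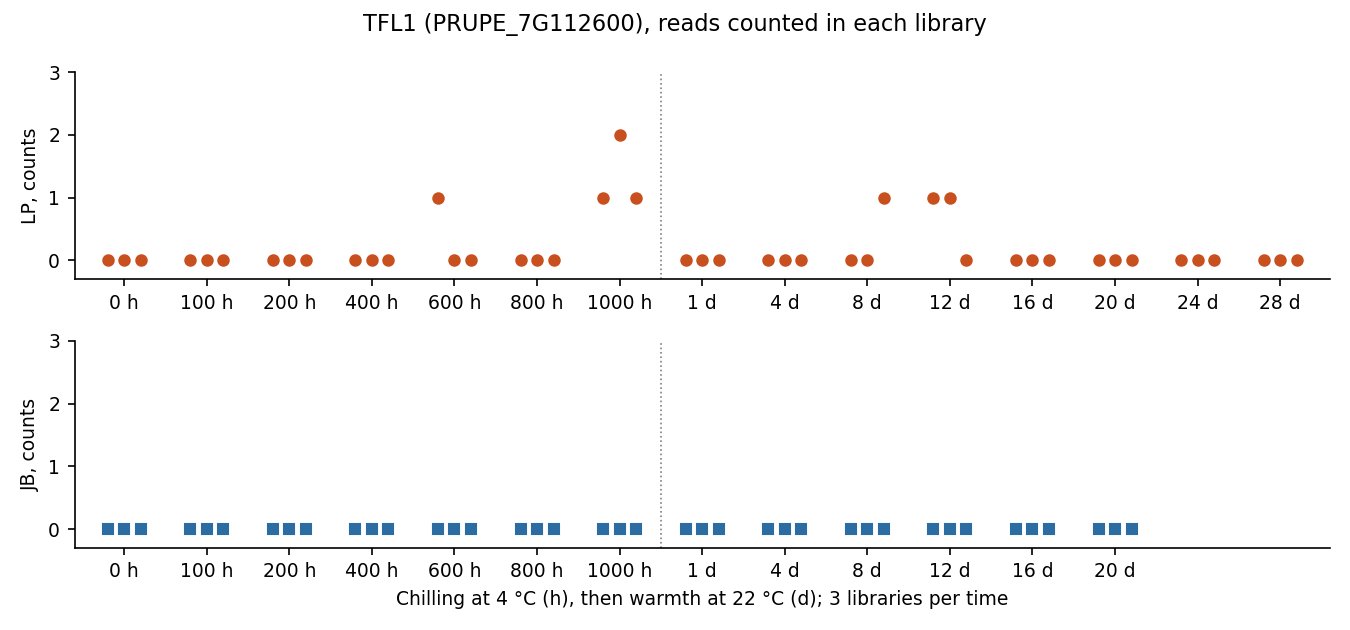
Reads counted for TFL1 (vertical axis) in each of the 3 libraries of every time (horizontal axis), for LP above and JB below. All JB libraries lie at 0, and the 8 LP reads lie at 600 h, 1000 h, 8 d and 12 d, with 4 of them at 1000 h.

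Pooled over all libraries, TFL1 stood at 0.0148 CPM in LP (95% exact Poisson interval from 0.00637 to 0.0291). It stood at 0 CPM in JB, with an interval from 0 to 0.00764. The LP pool at 1000 h was 0.121 CPM, with an interval from 0.0329 to 0.309. These intervals cover counting error only. TFL1 was too low for the count model, since the fit with no filter gave a standard error of 2782 on the log2 scale over chilling. Mean CPM over the chilling times was 0.0222 in LP and 0 in JB (two-sided permutation of genotype within times, p = 0.0501, 100000 permutations). Over the shared warm times it was 0.0147 in LP and 0 in JB (permutation p = 0.199). With so few reads these tests could not pass, since the smallest p that the permutations allow is 0.05 over chilling and 0.2 over warmth, and both results lie at that limit up to the error of random permutations. They say nothing either way about a difference of TFL1 between the genotypes. Over all genes of the study, 106 had the same sum of 8 reads, of which 5 had them all in LP and 10 had them all in JB, and 2308 genes (8.59%) had no more reads than TFL1. Reads that fit more than 1 copy of this gene family could not be traced in the counts, nor reads from the opposite strand, which holds for FT too.

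The gene models next to TFL1 had reads, though PRUPE_7G112100 had none in LP (mean 0 CPM, against 0.269 CPM in JB). The 5 before and the 5 after TFL1 in identifier order had means of 0.125 to 123 CPM over all libraries, and all 10 passed the filter. The 10 neighbours of FT had 16.9 to 201 CPM. Over chilling 2 of these 10 were higher in LP, 3 were lower and 5 did not pass, where 37.0% of all tested genes were higher and 32.3% lower. Over the shared warm times 7 were higher in LP, 1 was lower and 2 did not pass, where 36.2% of all tested genes were higher and 32.5% lower. The 8 of 10 called is near the 68.6% called over all genes. Their correlation with FT over the 28 group means of log2 CPM ran from -0.53 to 0.61.

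Other genes of dormancy and flowering were set beside FT. The list held the 6 DAM genes, MADS-box genes known for winter dormancy of buds, and PRUPE_6G242400, held to be the euAP2 gene of the series' title from knowledge of the study rather than from the table. From 0 to 1000 h, when FT rose, 1 of the 7 rose in LP (PRUPE_6G242400, 0.71 ± 0.10, adjusted p = 3.8e-09), 4 fell and 2 did not pass, with a median of -1.15 against 0.00 for all tested genes, of which 27.4% rose and 26.9% fell. In JB none rose, 5 fell and 2 did not pass, with a median of -2.07, where 29.5% of all tested genes rose and 31.8% fell. The 5 of 7 called is near the share over all genes in each genotype, 54.3% in LP and 61.4% in JB. Of these calls, PRUPE_DAM1 in LP was lost without replicate 2 (-0.75, adjusted p = 0.176), and PRUPE_DAM3 in JB without replicate 1 (-0.30, adjusted p = 0.508) and without replicate 2 (-0.99, adjusted p = 0.0562). The abundant members PRUPE_DAM4, PRUPE_DAM5 and PRUPE_DAM6 changed in LP by -1.87, -2.14 and -1.81 on the log2 scale, and in JB by -2.07, -3.47 and -2.64. So from 0 to 1000 h FT rose while these 3 fell, in both genotypes. The course was not opposite throughout, since PRUPE_DAM4 first rose with FT from 0 to 100 h. It rose by 0.27 ± 0.09 in LP (adjusted p = 0.00878, 47.2% of tested genes called) and by 0.32 ± 0.09 in JB (adjusted p = 0.00203, 48.8% called).

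**Figure D5:**
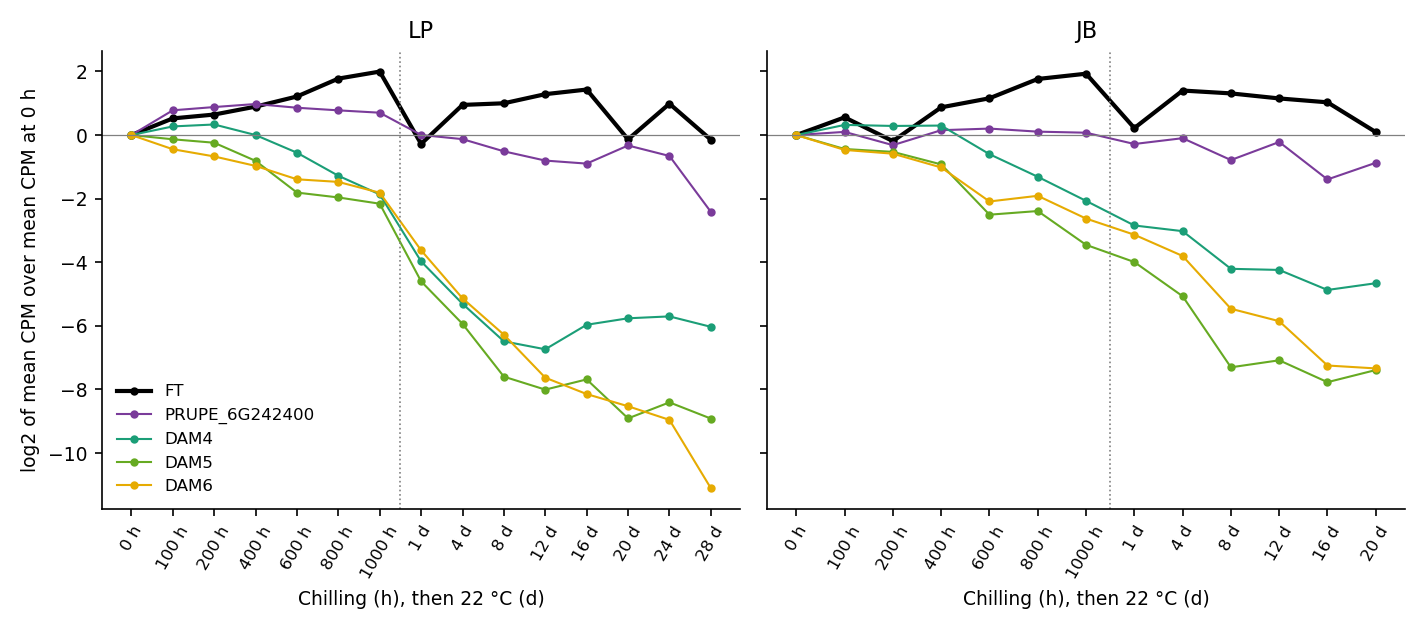
Log2 of the mean CPM over the mean at 0 h of the same genotype (vertical axis) for FT, PRUPE_6G242400 and 3 DAM genes at each time (horizontal axis), for LP (left) and JB (right). FT climbs by about 2 during chilling, and the 3 DAM genes end chilling lower than at 0 h in both genotypes. At 22 °C FT moves up and down, and the 3 DAM genes stay below their 1000 h means. Their course is not a steady fall, since PRUPE_DAM4 rises in LP from 12 d to 16 d (0.77 ± 0.15, adjusted p = 3.97e-05 in edgeR's test).

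On the move to 22 °C the directions were mixed. By 20 d, when FT was lower in both genotypes, 1 of the 7 genes had risen in LP, 5 had fallen and 1 did not pass, and in JB 2 had risen, 4 had fallen and 1 did not pass. Over all tested genes 65.9% were called in LP and 75.1% in JB, so 6 of 7 is no result about the list. The LP call of PRUPE_DAM3 (-0.85) was lost without replicate 1 (-0.62, adjusted p = 0.13) and without replicate 3 (-0.75, adjusted p = 0.106). PRUPE_DAM1 rose in LP by 1.60 ± 0.35 and in JB by 2.83 ± 0.39, opposite to FT. PRUPE_DAM4 changed by -3.90 ± 0.11 in LP and by -2.59 ± 0.11 in JB, in the same direction as FT. Over chilling 5 of the 7 were, like FT, higher in LP, 2 did not pass and none was lower, where 69.3% of all tested genes were called and 37.0% were higher. PRUPE_DAM3 was the weakest of the 5 (0.26, adjusted p = 0.0429), and its call was lost with DESeq2 and with 6 other settings. Over the shared warm times 1 of the 7 was higher in LP, 3 were lower and 3 did not pass, with a median of -0.62, where 68.6% of all tested genes were called. Among those that did not pass, PRUPE_DAM1 (-0.28, adjusted p = 0.0293) and PRUPE_DAM5 (-0.67, adjusted p = 0.00171) were called lower in LP with DESeq2. PRUPE_6G242400 was the member that was higher in LP in both, by 0.67 ± 0.04 over chilling (adjusted p = 1.16e-26) and by 0.18 ± 0.04 over warmth (adjusted p = 0.000298). By single times it was higher in LP at 1, 8, 16 and 20 d and did not pass at 4 d (-0.02). At 12 d it was lower in LP (-0.58 ± 0.11, adjusted p = 6.93e-06 in edgeR's test). The JB libraries of 12 d, where replicate 3 stood apart, ran from 20.6 to 37.4 CPM. With each genotype at its start of bloom it was lower in LP (-1.52 ± 0.13, adjusted p = 3.8e-16).

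Over the 28 group means of log2 CPM, FT correlated with PRUPE_6G242400 at 0.31, with PRUPE_DAM4 at -0.10, with PRUPE_DAM5 at -0.08 and with PRUPE_DAM6 at -0.04. These are descriptions over groups that share genotype and time. The 2 genes most like FT by Pearson correlation among 18597 with a mean of at least 1 CPM were PRUPE_2G186100 at 0.85 and PRUPE_1G007100 at 0.85, and no gene reached 0.9. No name is given for either identifier in the sources used here. PRUPE_2G186100 had 29.9 ± 3.5 CPM at 1000 h in LP and 21.8 ± 1.2 CPM in JB, and 19.3 ± 1.8 CPM at 1 d in LP and 13.9 ± 1.1 CPM in JB. It thus moved with FT in direction at the start of warmth, by a smaller amount. The gene was picked for its likeness to FT over these same groups, so this likeness in direction is no test. PRUPE_2G186100 did not share the clear JB dip at 200 h, with 13.6 ± 0.89 CPM at 100 h and 13.3 ± 1.6 CPM at 200 h. By Spearman correlation PRUPE_2G186100 was also the most like FT (0.90), and PRUPE_1G007100 ranked 4 (0.88).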

How the data were processed

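The members and lists were chosen with earlier results of these data known, and the tests between consecutive times and counts of step patterns were added after the values were seen. Floral buds were sequenced from stranded mRNA libraries, per the labels' protocols. Read trimming and alignment tools named in the submitters' processing notes are Trimmomatic and STAR 2.6.0, beside FastQC 0.11.9 and edgeR. The authors deposited 1 table of whole-number read counts per gene for all 84 libraries, not normalized. What counted the reads, on which genome build and with which strand setting is not given in the sources used here. By group, the filter filterByExpr kept 21168 genes. Counts were TMM-scaled and fitted with edgeR 4.0.16 (R 4.3.3, limma 3.58.1) in 1 model of 28 group means, which left 56 residual degrees of freedom. TFL1 was tested by permuting genotype within times. Alternatives were DESeq2 1.42.0 and its size factors, no filter, a 2-fold minimum, a replicate block, fits of fewer groups and libraries left out. Where a single library was left out, the gene filter and the dispersion trend of all libraries were kept and the TMM factors and quasi-likelihood spread were estimated anew; where a replicate number was left out throughout, everything was estimated anew. Group and time came from the titles. Log2 CPM used a prior count of 2. The pipeline was tested on simulated data. Genes most like FT were the 2 with the highest Pearson correlation of group means.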

Additional observations from a re-analysis of the deposited data

Results flagged for a closer look

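The response of FT differed between LP and JB in 7 tests of the difference itself. These tests share libraries, so they are not 7 separate results. Genotype by time gave F = 7.06 over chilling (adjusted p = 3.5e-05, edgeR, 56.6% of tested genes called). It gave F = 10.9 over the shared warm times (adjusted p = 2.42e-07, 81.2% called). Of the 12 steps shared by both genotypes, 5 differed. The LP step minus the JB step, on the log2 scale, was 0.89 to 200 h (17.8% called) and -0.82 to 400 h of chilling (22.7% called). Both of these rest on the same 200 h libraries. At 22 °C the LP step minus the JB step was -0.56 to 1 d (39% called), 0.45 to 12 d (30.2% called) and -0.63 to 20 d (42.6% called). The other 7 step differences did not pass and lay between -0.07 and 0.26. For the step to 12 d the difference was 0.66 with the 2 libraries that stood apart left out, and 0.15 with replicate 1 left out throughout. Its call was lost in 3 of 9 alternatives. The call for the step to 1 d was lost without replicate 1 (-0.53, adjusted p = 0.0574).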

How the results depend on the processing

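For FT, the calls and directions of both genotype means, of the changes from 0 to 1000 h and from 1000 h to 20 and 28 d, and of the 6 F tests held in each alternative run for FT. The 2-fold minimum was not among these runs, since it was applied only to the counts of genes called. Both FT genotype means, 0.76 over chilling and 0.47 over warmth on the log2 scale, lie under 2-fold. The replicate block (1 of 39 same-numbered pairs of libraries correlated above 0.1, and 20 of 84 libraries correlated best with their own number) gave 0.76 for FT over chilling, and moved a single FT call, the LP step to 600 h (0.32, adjusted p = 0.0494). The FT difference of 20 d responses passed with DESeq2 (-0.36) and in a fit restricted to its groups (-0.31), and with libraries left out it ran from -0.41 to -0.20. The FT difference of chilling responses ran from -0.12 to 0.17, and FT at the start of bloom from 0.22 to 0.51. Single-time FT values ran from 0.21 to 0.49 at 8 d and from 0.27 to 0.45 at 20 d, where leaving out replicate 3 throughout ended the call (adjusted p = 0.0658). The FT step in JB to 12 d ran from -0.44 to 0.053 and to 16 d from -0.22 to 0.10, and that to 16 d was 0.11 without the 2 libraries that stood apart. Values with no call in the main run changed sign for PRUPE_DAM3 in JB from 1000 h to 20 d (0.0394 with DESeq2 size factors, 0.0311 with DESeq2, -0.33 to 0.14 with replicates left out). They also did for PRUPE_DAM3 in LP chilling (-0.89 to 0.12), for PRUPE_DAM2 between genotypes over chilling (-0.26 to 0.64) and for PRUPE_6G242400 in JB chilling (-0.0232 to 0.15). Without replicate 1, PRUPE_DAM3 in LP chilling was called as a fall (-0.89, adjusted p = 0.0147 in edgeR's test). The call of PRUPE_DAM3 as higher in LP over chilling (0.26) was lost with DESeq2 and 6 other settings. For TFL1, leaving out a replicate number is no check, since the permutation p (0.167 to 0.33 over chilling, 0.334 to 0.499 over warmth) is then the smallest that the reads allow. CPM by total counts moved 7 of 28 FT levels by more than the SD. With a 2-fold minimum, the genes called fell over chilling between genotypes to 2221 of 14676, over warmth to 2537 of 14530, at bloom to 4824 of 12659, from 0 to 1000 h to 3645 of 11494 in LP and 4456 of 12987 in JB, to 20 d to 5600 of 13958 in LP and 8116 of 15891 in JB, to 28 d to 7811 of 15709, and for the differences of responses to 1469 of 6719 in chilling and 6019 of 12161 in warmth. Without replicate 1 or 2, 2986 and 3827 genes differed in chilling response. DESeq2 was not run for F tests. The cause of these changes was not tested.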

Other observations

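FT at 20 d lay below its neighbours in time in LP, and the same pattern was rare among the tested genes. A called fall of at least 2-fold to 20 d in LP was seen for 405 of 21168 genes, and 46 of these also had a called rise of at least 2-fold to 24 d. For 27 genes (0.128%) a called fall of at least 2-fold to 28 d came after these. FT was the only gene that also had both changes of at least 2-fold at the start of warmth in LP, a fall to 1 d and a rise to 4 d. The pattern was read off FT itself before the genes were counted, so the count of 1 describes this table and is no test. All 3 LP libraries of 20 d (15.8 to 18.0 CPM) lay below all 3 of 16 d (45.5 to 55.7 CPM) and all 3 of 24 d (35.4 to 37.0 CPM).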
